A study of Zea mays with 8 samples.

Results

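Transcripts of 7 maize genes for 2 glycolytic enzymes were compared between the aleurone and the starchy endosperm of the kernel. Of these genes, 4 encode cytosolic glyceraldehyde-3-phosphate dehydrogenase (GAPDH): GPC1 (GRMZM2G046804), gpc2 (GRMZM2G180625), gpc3 (GRMZM2G071630) and gpc4 (GRMZM2G176307). The other 3 encode enolase: eno1 (GRMZM2G064302), eno2 (GRMZM2G048371) and a further enolase known here by its ID, GRMZM2G009030. They were picked by ID from the 39475 genes of each library, with their differences between the tissues already known, so the tissue differences below are a description and carry no test. The change with age was not used directly for that choice and was tested, although earlier results of these data were known.

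GAPDH oxidises glyceraldehyde-3-phosphate and passes the electrons to NAD, and enolase makes phosphoenolpyruvate, the substrate of the last step of glycolysis. Plants keep several cytosolic genes for each enzyme. In maize seedlings gpc3, gpc4 and eno1 are known for induction by low oxygen, while GPC1, gpc2 and eno2 are not induced by it. The aleurone is the outer, living cell layer of the endosperm and stores oil and protein, and the starchy endosperm beneath it fills with starch and zein storage proteins.

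The 4 groups were aleurone at 22 days after pollination (DAP), aleurone at 18 DAP, starchy endosperm at 22 DAP and starchy endosperm at 18 DAP, with 2 libraries each. All kernels were of the inbred line B73 and were grown in a greenhouse, and the labels give no treatment. Per the labels' protocols, they were taken from replicate plants and frozen, and the tissues were peeled apart mechanically after thawing. The unit of level is TPM, a length-corrected transcript abundance that RSEM scales to the same total in each library.

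Total counts were between 2473036 and 11529170 per library, and replicate 2 was the deeper library in every group although fewer genes had a count in it. The 4 aleurone markers found summed to between 9733 and 34612 TPM in aleurone libraries and to between 19.1 and 29.1 TPM in starchy endosperm libraries, where 2 of them were at 0 at 22 DAP and 1 at 18 DAP. The 7 starchy endosperm markers summed to between 11024 and 12469 TPM in aleurone libraries and to between 57717 and 68479 TPM in starchy endosperm libraries. The aleurone libraries thus held 20.0% at 22 DAP and 17.5% at 18 DAP of the starchy endosperm level of that second list. Markers of the basal transfer layer, the embryo-surrounding region, the embryo and green maternal tissue summed to at most 2.98 TPM per list in every library. In that order, 8 of 10, 3 of 3, 3 of 5 and 1 of 6 listed symbols were found. The maternal list thus rests on the gene ssu1 alone and says little about maternal tissue. Whether a lower level means fewer cells of a type or less RNA per cell cannot be told apart in such bulk tissue.

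The GAPDH genes formed pairs that were high in opposite tissues. GPC1 and gpc2 together made up 87.9% ± 6.57 of cytosolic GAPDH TPM in aleurone at 22 DAP and 91.8% ± 1.97 in aleurone at 18 DAP (SD, n = 2 each). In starchy endosperm they made up 12.0% ± 2.66 at 22 DAP and 9.71% ± 1.94 at 18 DAP (SD, n = 2 each), and gpc3 and gpc4 made up the remainder. Enolase was less divided, with eno2 the larger part in aleurone and eno1 the larger part in starchy endosperm. Shares of this kind are taken within a library and do not depend on how libraries are scaled against each other.

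**Figure D1:**
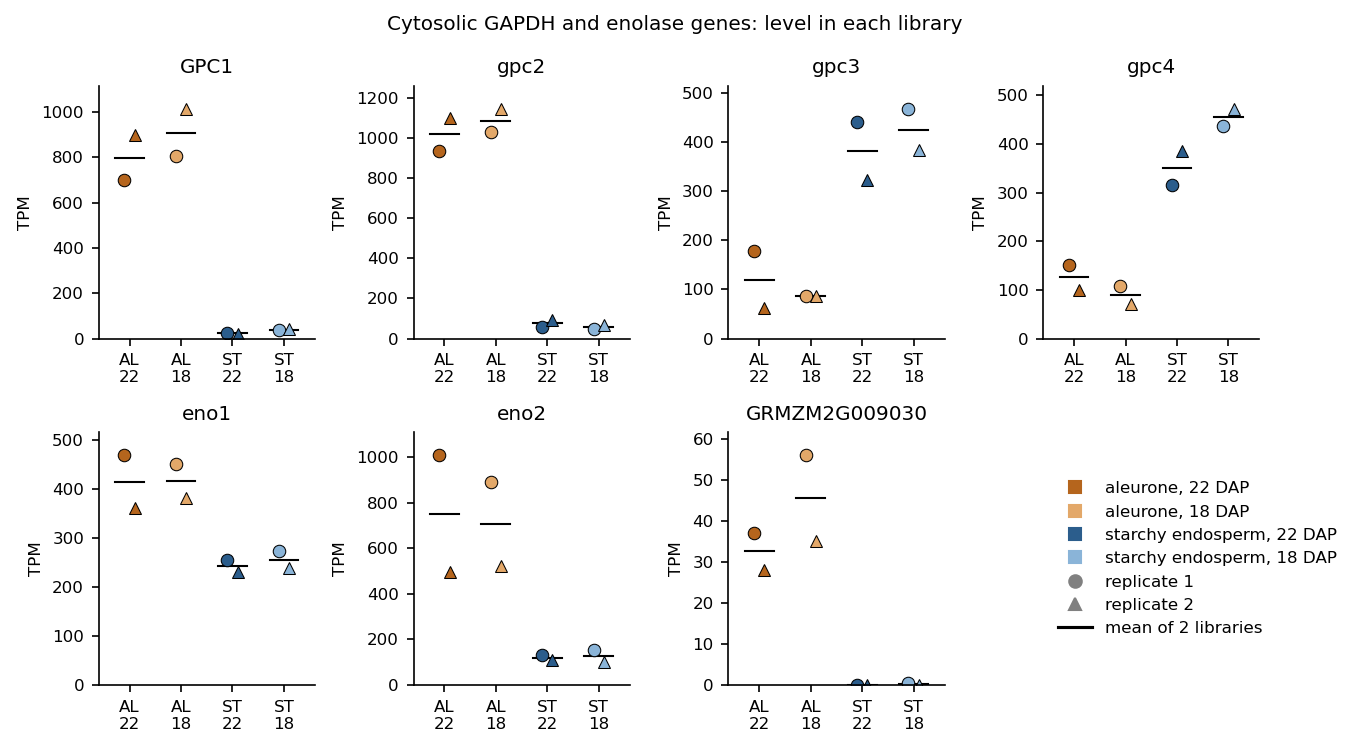
Level of each of the 7 genes in TPM (vertical axes, each from 0) in aleurone (AL) and starchy endosperm (ST) at 22 and 18 DAP. Each point is 1 library, and the bar is the mean of 2. GPC1 lay at 698.8 TPM or more in the AL libraries and at 40.5 TPM or less in the ST libraries, while gpc3 lay at 178.3 TPM or less in AL and at 323.2 TPM or more in ST.

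The gene GPC1 had 698.8 and 896.7 TPM in aleurone at 22 DAP and 805.1 and 1013 TPM in aleurone at 18 DAP. In starchy endosperm it had 26.4 and 21.1 TPM at 22 DAP and 36.6 and 40.5 TPM at 18 DAP. The tissues did not overlap, and the ratio of mean TPM, aleurone over starchy endosperm, was 33.6 at 22 DAP and 23.6 at 18 DAP. Its close copy gpc2 had 935.6 and 1100.4 TPM in aleurone at 22 DAP and 1029 and 1145 TPM in aleurone at 18 DAP. In starchy endosperm gpc2 had 59.0 and 93.1 TPM at 22 DAP and 45.8 and 66.1 TPM at 18 DAP. The level of gpc2 was above that of GPC1 in all 8 libraries, and its ratio between the tissues was 13.4 at 22 DAP and 19.4 at 18 DAP.

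The gene gpc3 had 178.3 and 61.5 TPM in aleurone at 22 DAP and 86.5 and 86.9 TPM in aleurone at 18 DAP. In starchy endosperm gpc3 had 441.9 and 323.2 TPM at 22 DAP and 468.1 and 384.2 TPM at 18 DAP. Replicate 1 of aleurone at 22 DAP was the highest aleurone library for gpc3, but it stayed below each starchy endosperm library. For gpc4 the aleurone values were 151.1 and 100.1 TPM at 22 DAP and 107.6 and 70.2 TPM at 18 DAP. In starchy endosperm gpc4 had 316.4 and 385.6 TPM at 22 DAP and 437.3 and 472.1 TPM at 18 DAP. The ratio of mean TPM, aleurone over starchy endosperm, was 0.313 for gpc3 and 0.358 for gpc4 at 22 DAP, and 0.203 for gpc3 and 0.195 for gpc4 at 18 DAP. TMM scaling of the counts sets libraries against each other by a trimmed mean of gene ratios. With it, the side of each of the 4 genes was kept and the sizes differed. The log2 fold change, aleurone over starchy endosperm, was then 3.19 for GPC1, 1.91 for gpc2, -3.78 for gpc3 and -3.41 for gpc4 at 22 DAP. At 18 DAP the log2 fold change was 2.52 for GPC1, 2.16 for gpc2, -4.43 for gpc3 and -4.48 for gpc4.

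Between the tissues, the residual levels of the opposite isoforms can be set beside the markers, all on the TPM scale. In aleurone gpc3 reached 31.3% of its starchy endosperm mean at 22 DAP and 20.3% at 18 DAP, and gpc4 reached 35.8% at 22 DAP and 19.5% at 18 DAP. The starchy endosperm markers in the same aleurone libraries were at 20.0% and 17.5% of their starchy endosperm sum. The 31.3% of gpc3 is the mean of 2 unlike libraries, at 178.3 and 61.5 TPM, whose marker sums were alike, between 11291 and 11835 TPM. The level of gpc3 therefore cannot be placed above or below the marker level. The 35.8% of gpc4 at 22 DAP lay above the 20.0% of the markers. Its aleurone libraries were at 151.1 and 100.1 TPM, beside a starchy endosperm mean of 351.0 TPM. At 18 DAP its 19.5% was close to the 17.5% of the markers. In starchy endosperm GPC1 was at 2.97% of its aleurone mean at 22 DAP and 4.24% at 18 DAP, and gpc2 was at 7.47% at 22 DAP and 5.15% at 18 DAP. The aleurone markers in starchy endosperm were at 0.157% of their aleurone sum at 22 DAP and 0.0783% at 18 DAP, which is below the remaining levels of GPC1 and gpc2 there. The part of either tissue's RNA in the libraries of the other was not tested.

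The rank of a gene by TPM within its library gives the same picture without any scaling. Among the 39475 genes, GPC1 ranked between 90 and 104 in aleurone libraries and between 878 and 1785 in starchy endosperm libraries. Next to it, gpc2 ranked between 66 and 75 in aleurone libraries and between 337 and 722 in starchy endosperm libraries. In contrast gpc3 ranked between 730 and 2123 in aleurone and between 55 and 87 in starchy endosperm, and gpc4 between 900 and 1989 in aleurone and between 65 and 70 in starchy endosperm. Thus both tissues had GAPDH genes among their most abundant transcripts, but not the same ones.

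Within the GAPDH family, GPC1 held 38.6% ± 4.21 of the summed TPM in aleurone at 22 DAP and 41.7% ± 2.88 in aleurone at 18 DAP, against 2.84% ± 0.40 at 22 DAP and 3.96% ± 0.359 at 18 DAP in starchy endosperm (SD, n = 2 each). The share of gpc2 was 49.3% ± 2.36 and 50.1% ± 0.915 in aleurone at 22 and 18 DAP, and 9.15% ± 3.06 and 5.75% ± 1.58 in starchy endosperm at 22 and 18 DAP (SD, n = 2 each). For gpc3 the share was 5.96% ± 4.41 and 4.01% ± 0.362 in aleurone at 22 and 18 DAP, and 45.8% ± 9.26 and 43.6% ± 5.29 in starchy endosperm (SD, n = 2 each). For gpc4 it was 6.17% ± 2.16 and 4.17% ± 1.61 in aleurone at 22 and 18 DAP, and 42.2% ± 6.61 and 46.6% ± 3.36 in starchy endosperm (SD, n = 2 each). The order in aleurone was gpc2 above GPC1, with gpc3 and gpc4 well below and not separated from each other. In starchy endosperm gpc3 and gpc4 led and were within their spread of each other. For gpc2 and GPC1 there, the shares lay apart at 22 DAP and by little more than their spread at 18 DAP.

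**Figure D2:**
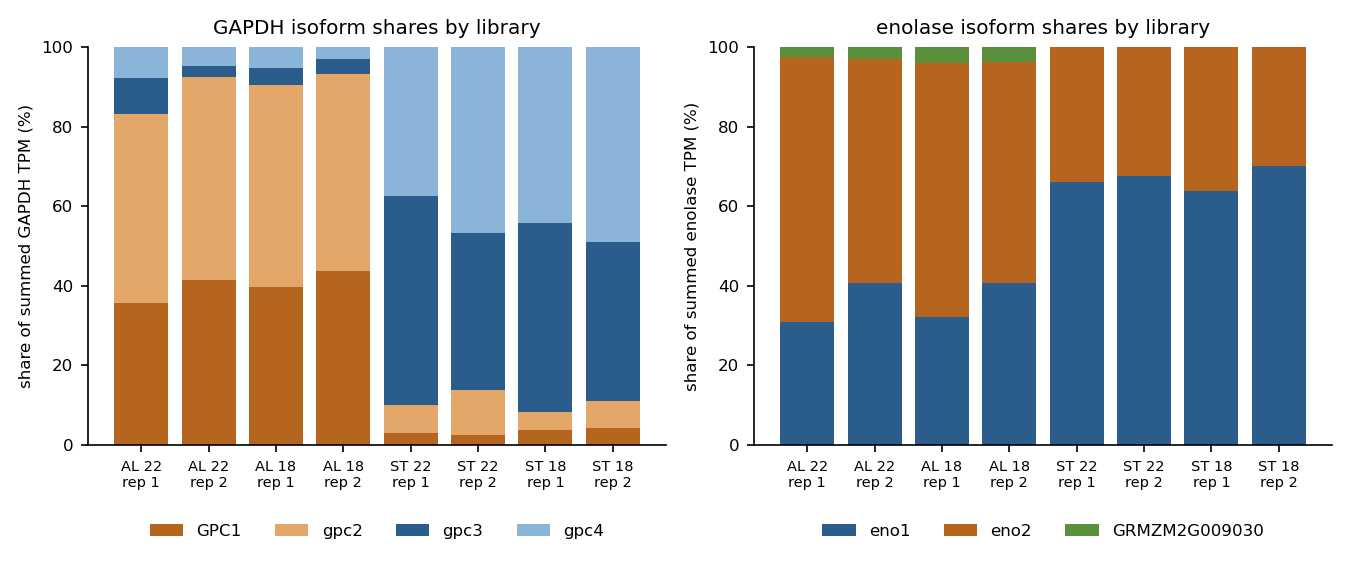
Share of each isoform in the summed TPM of its enzyme (vertical axis, %), with 1 bar per library of aleurone (AL) and starchy endosperm (ST) at 22 and 18 DAP. GPC1 and gpc2 together fill 83.2% to 93.2% of the GAPDH bars in AL and 8.34% to 13.9% in ST, and eno2 fills 55.6% to 66.6% of the enolase bars in AL and 29.8% to 36.1% in ST.

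GPC1 and gpc2 are near copies of each other, as are gpc3 and gpc4, so RSEM had to divide shared reads within each pair. The posterior standard deviation of the count, a score the authors deposited with each estimate, was the same for both genes of a pair in 8 of 8 libraries for both pairs, within 0.02 reads. It came to at most 2.56% of the count for GPC1, 1.02% for gpc2, and 1.39% for gpc3 and for gpc4. No such sharing was recorded for eno2, whose posterior standard deviation was 0 in all 8 libraries, and it was at most 0.0787% of the count for eno1. For GRMZM2G009030 it was between 1.85% and 36.5% of the count in the 6 libraries with a count above 0, the highest being for 3.4 estimated reads in starchy endosperm at 18 DAP replicate 1. The split within a pair remains less certain than the sum of a pair.

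Ratios within a library show how the copies of a pair moved against each other. The ratio of GPC1 to gpc2 was 0.747 and 0.815 in aleurone at 22 DAP and 0.782 and 0.885 in aleurone at 18 DAP. In starchy endosperm the ratio was 0.447 and 0.226 at 22 DAP and 0.798 and 0.613 at 18 DAP. It was lowest in the pair of starchy endosperm libraries at 22 DAP, which did not overlap with any other library. The ratio of gpc4 to gpc3 was 0.848 and 1.63 in aleurone at 22 DAP and 1.24 and 0.808 in aleurone at 18 DAP, against 0.716 and 1.19 at 22 DAP and 0.934 and 1.23 at 18 DAP in starchy endosperm. For this pair the groups overlapped throughout, and which of the copies was higher changed between replicates of every group.

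**Figure D3:**
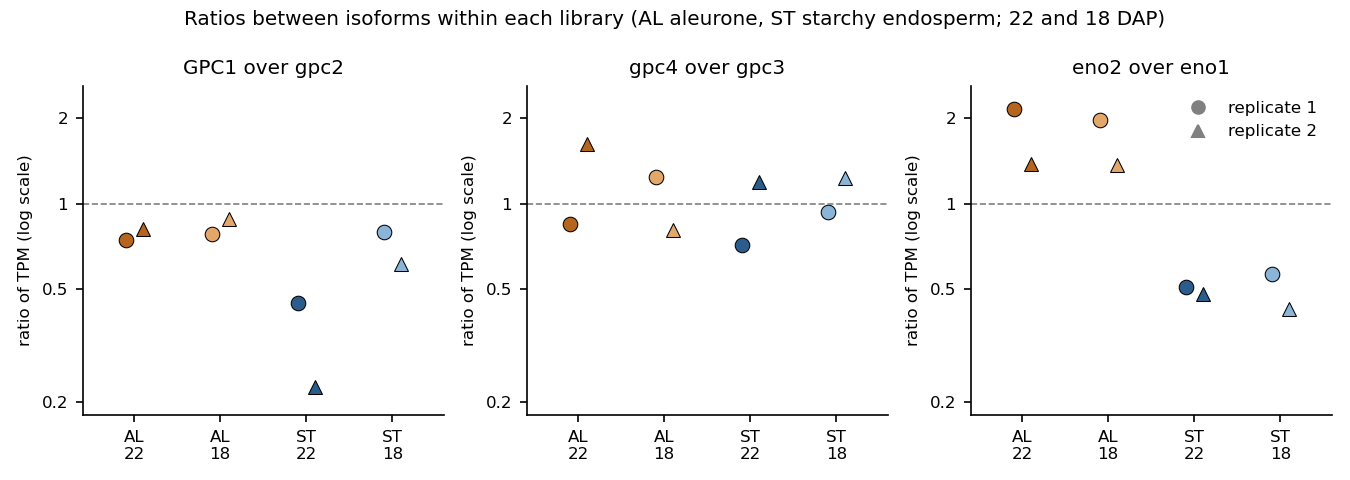
Ratio of the TPM of 2 isoforms within each library (vertical axis, log scale; the dashed line marks equal levels) in aleurone (AL) and starchy endosperm (ST) at 22 and 18 DAP. The ratio of eno2 to eno1 is at 1.37 or more in AL and at 0.567 or less in ST, that of gpc4 to gpc3 lies on both sides of 1 in each group, and that of GPC1 to gpc2 is lowest, at 0.226 and 0.447, in ST at 22 DAP.

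Enolase showed a smaller shift. The level of eno2 was 1007 and 497.0 TPM in aleurone at 22 DAP and 890.2 and 521.9 TPM in aleurone at 18 DAP. In starchy endosperm eno2 had 130.4 and 110.5 TPM at 22 DAP and 154.7 and 100.8 TPM at 18 DAP. The aleurone replicates differed by more than the starchy endosperm replicates in TPM, and replicate 1 was the higher library in each group. The tissues did not overlap, and the ratio of mean TPM, aleurone over starchy endosperm, was 6.24 at 22 DAP and 5.53 at 18 DAP. With TMM scaling of the counts the log2 fold change of eno2 was smaller, at 0.66 at 22 DAP and 0.32 at 18 DAP. With library size only it was 2.26 at 22 DAP and 2.00 at 18 DAP, so its size depends on the scaling. By rank within the library, eno2 stood between 62 and 192 in aleurone and between 158 and 317 in starchy endosperm, so that the ranks overlapped.

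For eno1 the aleurone values were 468.1 and 361.5 TPM at 22 DAP and 449.7 and 381.9 TPM at 18 DAP. In starchy endosperm eno1 had 255.9 and 229.5 TPM at 22 DAP and 273.0 and 238.0 TPM at 18 DAP. Its ratio of mean TPM, aleurone over starchy endosperm, was 1.71 at 22 DAP and 1.63 at 18 DAP, but with TMM scaling of the counts eno1 was on the other side, with a log2 fold change of -1.19 at 22 DAP and -1.40 at 18 DAP. In rank, eno1 stood between 184 and 275 in aleurone and between 88 and 129 in starchy endosperm. No direction between the tissues can therefore be given for eno1 on its own.

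The ratio of eno2 to eno1, which needs no scaling, was 2.15 and 1.38 in aleurone at 22 DAP and 1.98 and 1.37 in aleurone at 18 DAP. In starchy endosperm the ratio was 0.510 and 0.481 at 22 DAP and 0.567 and 0.424 at 18 DAP. Thus eno2 was above eno1 in all 4 aleurone libraries and below it in all 4 starchy endosperm libraries. In each of the 4 groups the ratio was higher in replicate 1, the shallower library, and the part of depth in this was not tested. As a share of enolase TPM, eno2 held 61.3% ± 7.44 in aleurone at 22 DAP and 59.7% ± 5.79 in aleurone at 18 DAP, against 33.1% ± 0.897 at 22 DAP and 32.9% ± 4.51 at 18 DAP in starchy endosperm (SD, n = 2 each). The share of eno1 was 35.9% ± 6.94 and 36.4% ± 5.98 in aleurone at 22 and 18 DAP, and 66.9% ± 0.897 and 67.0% ± 4.58 in starchy endosperm at 22 and 18 DAP (SD, n = 2 each).

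The further enolase GRMZM2G009030 had 37.0 and 28.0 TPM in aleurone at 22 DAP and 55.9 and 35.2 TPM in aleurone at 18 DAP. In starchy endosperm it was listed at 0 in both libraries at 22 DAP and at 0.470 and 0.0400 TPM at 18 DAP. With 547 counts in aleurone and 0 in starchy endosperm at 22 DAP, it was at least 62.7-fold higher in aleurone with TMM scaling, taking 3 counts over the group as the limit that a count of 0 allows. That bound was 167 with library size only, 48.1 without starchy endosperm replicate 1 and 14.6 without starchy endosperm replicate 2. At 18 DAP, with 620 counts in aleurone and 4 in starchy endosperm, the ratio with TMM scaling was 82.1 (95% interval 31.9 to 302, counting error only). It was 255 with library size only, and 179 for mean TPM. With TMM it was 255 without starchy endosperm replicate 1, where 1 count was left, and 24.4 without replicate 2, where 3 were left, so its size rests on a few reads. It was a minor part of enolase in aleurone, at 2.80% ± 0.504 of the TPM at 22 DAP and 3.87% ± 0.185 at 18 DAP (SD, n = 2 each).

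Summed over its isoforms, GAPDH reached 2061 ± 138 TPM in aleurone at 22 DAP and 2172 ± 203 TPM in aleurone at 18 DAP, against 833.3 ± 14.6 TPM at 22 DAP and 975.4 ± 17.6 TPM at 18 DAP in starchy endosperm (SD, n = 2 each). Enolase summed to 1199 ± 442 TPM in aleurone at 22 DAP and 1167 ± 323 TPM in aleurone at 18 DAP, against 363.1 ± 32.8 TPM at 22 DAP and 383.5 ± 63.1 TPM at 18 DAP in starchy endosperm (SD, n = 2 each). These directions depend on the scale. In counts per common library size with TMM scaling (CPM), GAPDH summed to 1582 ± 469 in aleurone and 2197 ± 362 in starchy endosperm at 22 DAP, and 1523 ± 440 in aleurone and 2642 ± 7.56 in starchy endosperm at 18 DAP (SD, n = 2 each). Enolase summed to a CPM of 1024 ± 134 in aleurone and 1303 ± 311 in starchy endosperm at 22 DAP, and 921.7 ± 69.7 in aleurone and 1398 ± 194 in starchy endosperm at 18 DAP (SD, n = 2 each). No direction between the tissues can therefore be given for either sum. The ratio of the GAPDH sum to the enolase sum was 1.30 and 2.43 in aleurone at 22 DAP and 1.45 and 2.47 in aleurone at 18 DAP. In starchy endosperm the ratio was 2.18 and 2.42 at 22 DAP and 2.31 and 2.84 at 18 DAP, so the tissues overlapped. The ratio of eno2 to eno1 separated the tissues, and this ratio of the enzymes did not.

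In the edgeR quasi-likelihood fit with TMM scaling, 4 of 7 members were called between the tissues at 22 DAP (background 1.69% of all genes tested, 1.19% higher and 0.504% lower) and 4 of 7 at 18 DAP (background 2.07%, 1.21% higher and 0.866% lower). Because these contrasts chose the members, nothing is read from those counts. At 22 DAP GPC1 and GRMZM2G009030 were on the higher side in aleurone and gpc3 and gpc4 on the lower side. At 18 DAP GPC1 and gpc2 were on the higher side and gpc3 and gpc4 on the lower side. With library size only in place of TMM, 6 of 7 were called at each age, 4 higher and 2 lower, beside 8.52% of all genes at 22 DAP and 6.99% at 18 DAP. The split of all genes called moved too, to 1585 higher and 38 lower at 22 DAP and 1281 higher and 51 lower at 18 DAP, against 226 and 96 at 22 DAP and 230 and 165 at 18 DAP with TMM. With TMM the count was 2 at 22 DAP without starchy endosperm replicate 2 of that age, and 3 without either aleurone library of that age or aleurone replicate 2 at 18 DAP. It was 2 at 18 DAP without aleurone replicate 2, starchy endosperm replicate 1 or starchy endosperm replicate 2 of that age, and 6 without either starchy endosperm library at 22 DAP.

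For 6 of the 7 genes the scaling moved the tissue difference by nearly as much as it moved the median gene. A library factor shifts all genes with ample counts almost alike, so this was fixed in advance and is only a description. With TMM the median log2 fold change of all genes tested, aleurone over starchy endosperm, was 0.94 at 22 DAP and 0.47 at 18 DAP, and with library size only it was 2.56 at 22 DAP and 2.14 at 18 DAP. Measured from that median at 22 DAP, GPC1 was at 2.25 with TMM and 2.15 with library size only, gpc2 at 0.97 and 0.83, gpc3 at -4.72 and -4.70, gpc4 at -4.35 and -4.42, and eno1 at -2.13 and -2.19. At 18 DAP the distance from the median was 2.04 and 2.02 for GPC1, 1.69 and 1.67 for gpc2, -4.90 and -4.92 for gpc3, -4.96 and -4.94 for gpc4 and -1.87 and -1.88 for eno1, again with TMM first. For eno2 the distance was -0.28 and -0.30 at 22 DAP and -0.15 and -0.14 at 18 DAP, so eno2 lay close to the median gene although its own log2 fold change was above 0 with TMM. GRMZM2G009030 was the exception at 22 DAP, at 9.61 with TMM and 8.68 with library size only, where its starchy endosperm counts of 0 make the fitted value depend on the prior count.

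**Figure D4:**
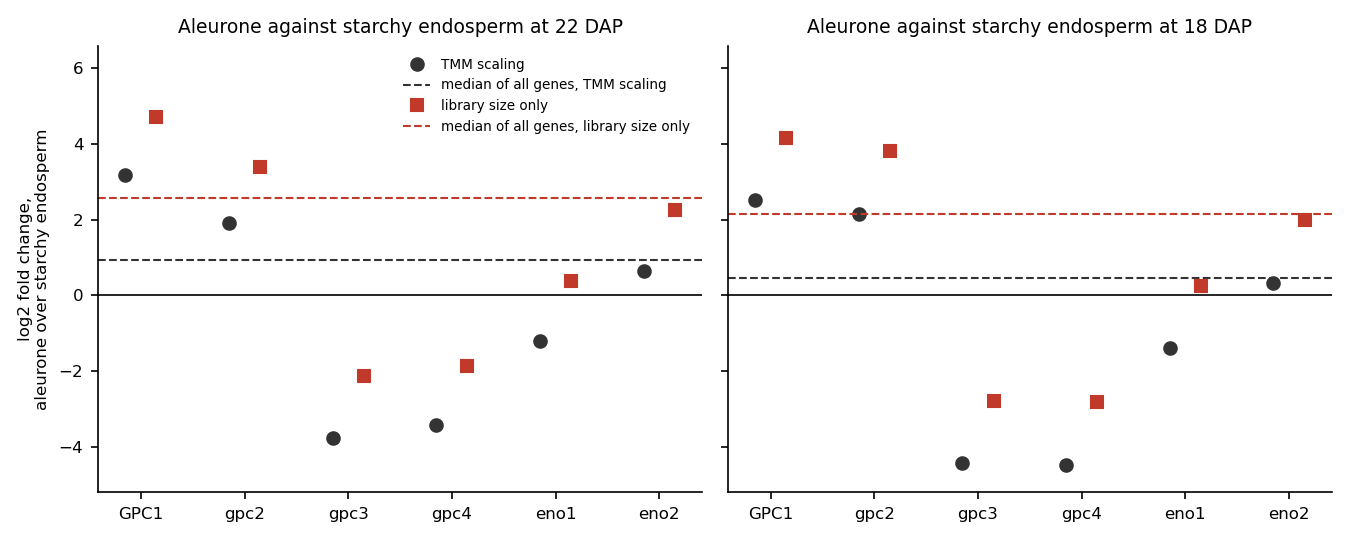
Log2 fold change of aleurone over starchy endosperm (vertical axis) at 22 DAP (left) and 18 DAP (right) for 6 of the genes, with TMM scaling (circles) and library size only (squares), without error bars. Dashed lines are the median of all genes tested under each scaling: eno1 is at -1.19 with TMM and 0.37 with library size only at 22 DAP, on either side of 0, and below both medians.

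To ask whether the isoforms changed between 22 and 18 DAP, the ages were compared within each tissue. In aleurone 0 of 7 members were called, as were 0% of the 19058 genes tested, and 0 of 7 had an unadjusted p under 0.05. In starchy endosperm 0 of 7 members were called too, again with 0% of all genes, and 0 of 7 had an unadjusted p under 0.05. Over all genes, 196 in aleurone and 655 in starchy endosperm had an unadjusted p under 0.05. DESeq2 called 2 genes in aleurone and 22 in starchy endosperm, and limma on log2(TPM + 1) called 25 in aleurone and 0 in starchy endosperm, with 0 members in each case. The fit called 3166 genes in starchy endosperm (14.5% of 21826) once replicate 1 at 22 DAP was left out, and 0 members. With 2 libraries a side, the SE of a log2 fold change was between 0.313 and 0.444 for the 6 genes other than GRMZM2G009030, so changes of moderate size could not be told from none.

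Of the GAPDH genes in aleurone, gpc4 had the estimate farthest from 0 between the ages, at a log2 fold change of 0.63 for 22 over 18 DAP (SE 0.315, edgeR adjusted p = 1). Its partner gpc3 was at 0.48 (SE 0.444), and 1 of 2 aleurone libraries at 22 DAP held its high value. GPC1 was at -0.05 (SE 0.437) and gpc2 at 0.05 (SE 0.401). With the counts of each pair summed, GPC1 plus gpc2 was at 0.01 (SE 0.392) and gpc3 plus gpc4 at 0.56 (SE 0.344), both with an edgeR adjusted p of 1.

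In starchy endosperm GPC1 had the estimate farthest from 0 among the GAPDH genes, at -0.73 (SE 0.444, edgeR adjusted p = 1). The other copy, gpc2, was at 0.30 (SE 0.403), and the pair summed was at 0.01 (SE 0.393). The genes gpc3 and gpc4 were at -0.17 (SE 0.441) and -0.44 (SE 0.313). For gpc4 both libraries at 22 DAP were below both at 18 DAP in TPM, and the summed pair was at -0.30 (SE 0.343, edgeR adjusted p = 1).

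The median of all genes tested between the ages was -0.01 in aleurone and -0.29 in starchy endosperm, and -0.10 there with upper quartile factors. The enolases had estimates near 0, and the signs of eno1 and eno2 in starchy endosperm and of eno1 in aleurone turned under other scalings or tools. In aleurone eno1 was at 0.12 (SE 0.325) and eno2 at 0.21 (SE 0.391), and GRMZM2G009030 at -0.34 (SE 0.996), each with an edgeR adjusted p of 1. In starchy endosperm eno1 was at -0.09 (SE 0.325) and eno2 at -0.13 (SE 0.392). For GRMZM2G009030 no fold is given in starchy endosperm, since it had 0 counts at 22 DAP and 4 at 18 DAP.

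**Figure D5:**
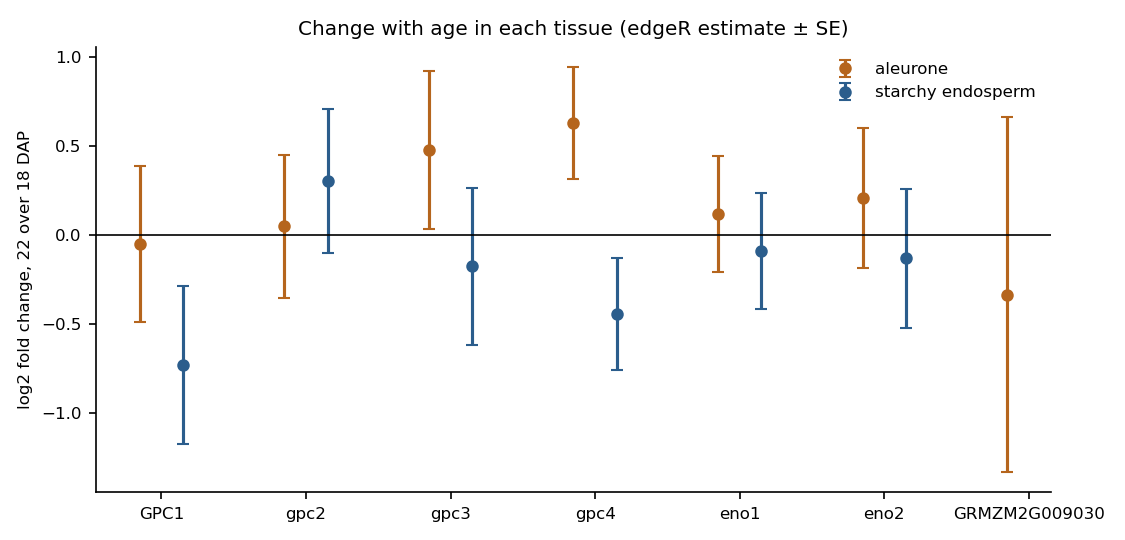
Log2 fold change of 22 over 18 DAP (vertical axis) for each gene in aleurone and in starchy endosperm, as the edgeR estimate. Error bars are an SE derived from the F statistic of the test. Estimates run from -0.73 for GPC1 in starchy endosperm to 0.63 for gpc4 in aleurone, and none was called; GRMZM2G009030 is shown for aleurone only.

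Whether the tissue difference itself changed with age was tested as an interaction. Here too 0 of 7 members and 0% of all genes were called by edgeR, with 1 member and 390 genes at an unadjusted p under 0.05. That member was gpc4, with a log2 change of 1.07 (SE 0.444, unadjusted p = 0.0393, edgeR adjusted p = 1). DESeq2 called 1 gene and limma on log2(TPM + 1) called 0, neither a member. Calls of the interaction fit without starchy endosperm at 22 DAP replicate 1 are not read, since replicate 2 was then alone in that group. The median of all genes tested in this interaction was 0.41, and 0.28 with upper quartile factors.

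At the level of annotated transcripts, 1 transcript carried most of each gene in every group, except that GRMZM2G009030 was at 0 in starchy endosperm at 22 DAP. For GPC1, with 8 annotated transcripts, T06 took 71.5% ± 3.13 of the TPM in aleurone at 22 DAP and 71.1% ± 19.0 in aleurone at 18 DAP, against 100% in both libraries at 22 DAP and 83.6% ± 23.1 at 18 DAP in starchy endosperm (SD, n = 2 each). At 22 DAP GPC1 had 102 and 216 counts in starchy endosperm, against 2445 and 7847 in aleurone. Minor transcripts could be missed at such low counts, and a tissue difference in transcript use was not tested. The main transcript of gpc3, T02, took 92.1% ± 1.07 and 88.6% ± 12.5 in aleurone at 22 and 18 DAP, and 81.2% ± 5.59 and 77.2% ± 4.93 in starchy endosperm at 22 and 18 DAP (SD, n = 2 each). For gpc2 the main transcript T03 averaged between 75.7% and 96.7% over the groups, and for eno2 the main transcript T03 averaged between 80.3% and 96.9%. The main transcripts of gpc4 (T02) and eno1 (T01) took the largest share too, at 95.3% ± 5.71 and 96.8% ± 0.0283 in aleurone at 22 DAP (SD, n = 2 each).

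The plastid photosynthetic GAPDH genes gpa1 and gpb1, the non-phosphorylating gpn1 and the plastid glycolytic GAPCP together held between 3.39% and 6.42% of all GAPDH TPM in aleurone libraries and between 0.229% and 0.767% in starchy endosperm libraries. GAPCP was most of it, at 113.7 ± 6.13 TPM in aleurone at 22 DAP and 4.45 ± 2.29 TPM in starchy endosperm at 22 DAP (SD, n = 2 each), and gpa1 was listed at 0 in all 8 libraries. Of the wider glycolysis list (hex2, phi1, pfk1, ald1, aldolase2 and these GAPDH genes, 10 IDs), 8 were tested. Between the ages 0 of 8 were called in aleurone and 0 of 8 in starchy endosperm, with 0 at an unadjusted p under 0.05 in each, and the median log2 fold change of the list was -0.31 in aleurone and -0.25 in starchy endosperm, beside -0.01 and -0.29 over all genes. Between the tissues edgeR called 0 of 8 at 22 DAP and 0 of 8 at 18 DAP, with 4 and 6 at an unadjusted p under 0.05, beside 3090 and 2969 of all 19058 genes. DESeq2 called 4 of the list between the tissues at 22 DAP and 3 at 18 DAP, beside 13% and 11.6% of all genes it gave an adjusted p. The list's median log2 fold change, aleurone over starchy endosperm, was 0.93 at 22 DAP and 0.81 at 18 DAP, beside 0.94 and 0.47 over all genes. No gene of the list lay near these medians with TMM scaling. At 22 DAP hex2, pfk1, gpn1 and GAPCP were between 2.71 and 6.71, and ald1, aldolase2 and both phi1 IDs between -2.13 and -0.85. At 18 DAP the former were between 2.34 and 6.6 and the latter between -1.63 and -0.72. The list's median therefore does not describe a typical gene of the list.

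Across the 8 libraries the members formed 2 sets by the Pearson correlation of log2(TPM + 1). The r was 0.943 between gpc3 and gpc4, 0.977 between GPC1 and gpc2 and 0.996 between eno1 and eno2. Each of GPC1, gpc2, eno1, eno2 and GRMZM2G009030 correlated negatively with gpc3 and gpc4, between -0.955 and -0.770. These values are over 8 libraries that fall into 2 tissues and mostly restate the tissue difference. The place of eno1 beside GPC1 and eno2 holds on the TPM scale. With TMM scaling its log2 fold change, aleurone over starchy endosperm, was -1.19 at 22 DAP and -1.40 at 18 DAP, on the side of gpc3 and gpc4.

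Among 1097 named genes with at least 20 TPM in a group, those most like GPC1 by the same correlation of TPM were elfa3 (r = 0.999), DEF1 (0.998) and HAK8 (0.998). DEF1 shares its ID with a second reference gene. For gpc2 they were GRMZM2G152908 (0.998), listed as both ss2 and sus1, then mbd115 (0.997) and ARF18 (0.996). For gpc3 they were the alpha-zein storage protein gene z1A2_3 (0.983), sh2 (0.977), which encodes a subunit of the ADP-glucose pyrophosphorylase of starch synthesis, and the starch debranching enzyme gene zpu1 (0.969). The gene sh2 is also on the starchy endosperm marker list. For gpc4 they were the alpha-zein genes z1C1_8 (0.983) and z1A1_7 (0.977) and ss1 (0.976), and counts of single zeins are uncertain because their copies share reads. Both eno1 and eno2 were most like pdi7 (0.994 and 0.998), with NDL1 (0.993) and ANT-G1 (0.992) next for eno1, and ALDH7 (0.997) and ANT-G1 (0.996) next for eno2. The genes most like GRMZM2G009030 were rel2, cax1 and tif5A, each at 0.997.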

How the data were processed

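RNA was sequenced from aleurone and starchy endosperm of maize kernels at 22 and 18 days after pollination, with 2 libraries per tissue and age. Per the submitters' processing notes, FastQC, Bowtie2 2.2.3, SAMtools and RSEM 1.2.15 were used with the genome build B73 RefGen_v3. The strand setting is not given in the sources used here. The deposited gene and transcript tables, per the file headers, hold expected counts from RSEM, which are estimated read counts per gene or transcript, and TPM, a length-corrected share of all transcripts. The same deposited tables hold a posterior standard deviation of each count, a score of how uncertain RSEM was about it, and the percent of its gene's TPM that each transcript took. The authors also deposited a table of mean TPM per tissue and age, which was used only to recompute the isoform shares.

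After rounding to whole numbers, the expected counts were tested with the quasi-likelihood test of edgeR 4.0.16 in R 4.3.3, on all 8 libraries with 4 group means, TMM scaling and the default filter on low counts. All 7 members were among the 19058 genes kept. P-values were adjusted over these genes with the Benjamini-Hochberg method, and a gene was called at an adjusted p under 0.05. The SE given with a log2 fold change was derived from this test. It is the size of the log2 fold change divided by the square root of the F statistic. Isoform shares were computed from TPM within each library and not tested, because 2 libraries against 2 are too few for an exact permutation test to pass that threshold. Other scalings, no filter, DESeq2 1.42.0, limma 3.58.1 on log2(TPM + 1) and log2(TPM + 0.1), a replicate block, only the libraries compared, summed counts of each near-identical pair and leaving out each library were tried. Scaled counts for the enzyme sums, and other scalings or fewer libraries for the count ratio of GRMZM2G009030, were added after seeing the data. The test was run on simulated data with gene-wise dispersions, after a first version with 1 common dispersion had made no calls. Its pass condition was only the size of a large simulated rise, not the calls. It thus does not bear on smaller changes with age.

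The members and the gene lists were chosen with earlier results of these data known. The text names all members, up to 4 called genes of the pathway list per comparison and the 3 named genes most like each member. Names came from a RefSeq gene table (Zm-B73-REFERENCE-NAM-5.0), which matched 18908 of 39475 gene IDs. Its coordinates belong to another build and are not given. Total counts per library set the counting error, and with 2 libraries per group the spread between replicates is itself poorly known.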

Additional observations from a re-analysis of the deposited data

How the results depend on the processing

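None of the 7 members was called between the ages or in the interaction under any alternative. Reversed estimates there were all small or uncertain, and the cause was not tested. In aleurone, gpc2 between the ages was -0.0031 with DESeq2's size factors in edgeR and in DESeq2, -0.0083 with library size only and -0.10 in both limma fits, and eno1 was -0.011 in both limma fits. Leaving out 1 library gave between -0.54 and 0.36 for GPC1, -0.36 and 0.38 for gpc2, -0.14 and 0.91 for gpc3 and -0.061 and 0.45 for eno2. In starchy endosperm, upper quartile factors gave 0.035 for gpc3, 0.14 for eno1 and 0.10 for eno2. There eno1 was 0.00049 with DESeq2's size factors in edgeR, 0.00043 in DESeq2 and 0.0014 with only the libraries compared. Leaving out 1 library gave between -0.59 and 0.14 for gpc3, -0.35 and 0.12 for eno1 and -0.44 and 0.19 for eno2. In the interaction the same gave between -0.76 and 0.048 for gpc2, -0.045 and 1.08 for gpc3, -0.0035 and 0.47 for eno1 and -0.026 and 0.66 for eno2, and limma on log2(TPM + 1) gave -0.14 for GRMZM2G009030.

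Between the tissues, eno1 was 0.37 at 22 DAP and 0.26 at 18 DAP with library size only, 0.76 and 0.70 in limma on log2(TPM + 1), and 0.76 and 0.70 in limma on log2(TPM + 0.1). Summed counts scaled by TMM, an alternative chosen after seeing the data, gave a log2 ratio of -0.474 at 22 DAP and -0.795 at 18 DAP for GAPDH and -0.348 and -0.601 for enolase, where summed TPM gave 1.31, 1.16, 1.72 and 1.61. Members called at 22 DAP were 7 in limma on log2(TPM + 0.1), beside 8644 of all 19058 genes, and 0 with only the libraries compared, beside 0 of all genes. The same setting called 5 members and 747 genes at 18 DAP, and the cause was not tested. Leaving out 1 library gave 2 to 5 members at 22 DAP and 2 to 6 at 18 DAP. Pathway genes called at 22 DAP, beside all genes called, were 2 beside 1623 with library size only, 1 beside 467 with upper quartile factors, 2 beside 1266 without a filter, 4 beside 2304 in DESeq2, 5 beside 10620 in limma on log2(TPM + 1) and 5 beside 8644 in limma on log2(TPM + 0.1). At 18 DAP, in that order, they were 2 beside 1332, 0 beside 593, 2 beside 1215, 3 beside 2108, 5 beside 9576 and 5 beside 6201. They were 0 to 4 at 22 DAP and 0 to 2 at 18 DAP when 1 library was left out. Among values of single genes, shares, enzyme sums and the count ratio of GRMZM2G009030, 615 kept their direction and their side of the threshold or spread. Of the others, 41 reversed, 31 newly passed the threshold, 15 no longer did and 10 moved beyond the spread or interval. A share with 1 of 2 libraries left out cannot move beyond their SD, so its place among the 615 was fixed in advance. Counts of genes called and the shares of eno2 and of gpc3 plus gpc4 were tallied apart, with 165 marked as the same and 24 as moved. The 165 also hold shares with 1 of 2 libraries left out, which could not move. Many others were counts of 0 between the ages or in the interaction, from fits that called 0 of all genes. The 165 are therefore no measure of how stable the results were. Shares of expected counts in place of TPM put eno2 at 28.2% in starchy endosperm at 22 DAP.

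The labels do not say that a replicate number marks a shared plant, and each comparison has only 2 such pairs, although deviations of same-numbered libraries correlated (r between 0.187 and 0.407 over genes, 6 of 6 group pairs). With the replicate block, members called were 6 at 22 DAP and 5 at 18 DAP between the tissues, 0 between the ages and 0 in the interaction, pathway genes called were 1 and 2, and all genes called between the tissues were 580 and 808 instead of 322 and 395. Protein and promoter sequences were not used here. With 2 libraries per group and counts as low as 102 for GPC1 in starchy endosperm, moderate changes with age were not detectable.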
